A study of Mus musculus with 9 samples.

Results

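The genes described here make the lysosome acidic, digest protein in it, and carry or sense its lipids. They are the genes in the array annotation whose symbol starts with Atp6v (subunits of the vacuolar proton pump, the V-ATPase), those named Cts plus 1 letter (cathepsins), and Lamp1, Lamp2, Lipa, Npc1, Npc2 and Tfeb. This gave 44 of 18193 named genes, with 89 probe sets. Livers came from males aged 14 weeks that were fed standard chow. The 4 db/db samples came from the strain BKS.Cg-Leprdb. That strain carries the db mutation of the leptin receptor gene in all cells and is obese and diabetic with a fatty liver by that age. The 5 control samples, called BKS, came from littermates of the strain C57BL/KSlepr+/+ with the intact receptor gene, and no group received a treatment. Each sample was total RNA of whole liver tissue on its own Affymetrix array. Whether each numbered sample is a different mouse is not stated in the labels, so a p-value speaks only of the spread among these 9 samples, which may be technical.

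A lysosome is kept acidic by the V-ATPase, in which the V1 sector, facing the cytosol, splits ATP and the V0 sector, set in the membrane, moves protons. Acid activates the cathepsins, which cut proteins delivered by endocytosis and autophagy. Lysosomal acid lipase (Lipa) frees cholesterol and fatty acids from lipid taken up with lipoproteins or from lipid droplets, and NPC2 and NPC1 pass the cholesterol out of the lysosome. The transcription factor TFEB turns on many genes of the lysosome through DNA sites that contain the letters CACGTG. Hepatocytes rely on this system to turn over organelles and lipid droplets, and Kupffer cells, the macrophages of liver, are rich in lysosomes.

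Signals are given as log2(signal + 16) after quantile normalization, and each gene stands for its brightest probe set. No probe set had a detection call, so low values cannot be called absent. Levels of different genes are not compared, since probe sets differ in brightness. A gene is said to have risen or fallen if its adjusted p in limma's moderated test, with Benjamini-Hochberg adjustment over all 18193 genes, was under 0.05. Control probe sets for 18S ribosomal RNA divide the arrays into 2 sets. Their signal was high (1114 to 9835) on arrays 4 and 5 of BKS and 3 and 4 of db/db. It was low (13.9 to 26.8) on the remaining 5. The labels name no batch. Both sets hold both genotypes, so the text adds fits that block on this split, and differences inside each set. The summed signal of 6 hepatocyte markers ran from 240990 to 250436 in BKS and from 223770 to 235444 in db/db, so every db/db array lay below every BKS array. Albumin stood at 15.47 ± 0.06 in BKS and 15.50 ± 0.13 in db/db (SD, n = 5 and 4). Of these markers none was called (limma, 2 at an unadjusted p under 0.05), 3 had a positive change, and their median was -0.09. Those with the smallest p were Hnf4a, a transcription factor of hepatocytes (-0.35, adjusted p = 0.125), and Apoa1, a protein of high-density lipoprotein (-0.38, adjusted p = 0.179). Fgb stood at -0.19, and Alb, Ttr and Apoc3 at 0.03, 0.02 and 0.14. The sum is of linear signal, so it follows the brightest markers, Apoa1 among them. The part of the lower summed signal in the results was not tested. Fewer cells of a type, less RNA per cell and lower signal of single markers cannot be told apart in such samples.

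Most of these genes did not pass the test, and the 5 that did moved in both directions. In db/db liver, Ctsd, Atp6v0d2 and Atp6v0a2 rose, by 1.63-fold to 2.95-fold, and Atp6v1g1 and Ctsa fell, by 1.78-fold and 1.57-fold. The 3 rises stand beside 2.89% of all genes that rose and the 2 falls beside 2.60% that fell. In all, 5 of 44 genes (11.4%) were called against 5.49% of all genes. The median log2 fold change was 0.08 over the 44 genes and -0.00217 over all genes. By role, 1 of 18 cathepsins rose and 1 fell, 2 of 8 genes of the V0 sector rose and none fell, none of 12 genes of the V1 sector rose and 1 fell, and none of the 6 genes of membrane proteins, lipid handling and regulation was called (limma, 2 of these at an unadjusted p under 0.05). At an unadjusted p under 0.05 there were 12 of the 44 genes, against 17.6% of all genes. With the 18S split as a block, Tfeb was called too, which gave 4 rises and 2 falls, against 8.23% of all genes called (4.11% higher and 4.13% lower). With arrays centred on the median in place of quantile normalization only Atp6v0a2 and Atp6v0d2 were called, and Ctsd, Ctsa and Atp6v1g1 kept their direction at adjusted p = 0.0670, 0.136 and 0.110.

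**Figure D1:**
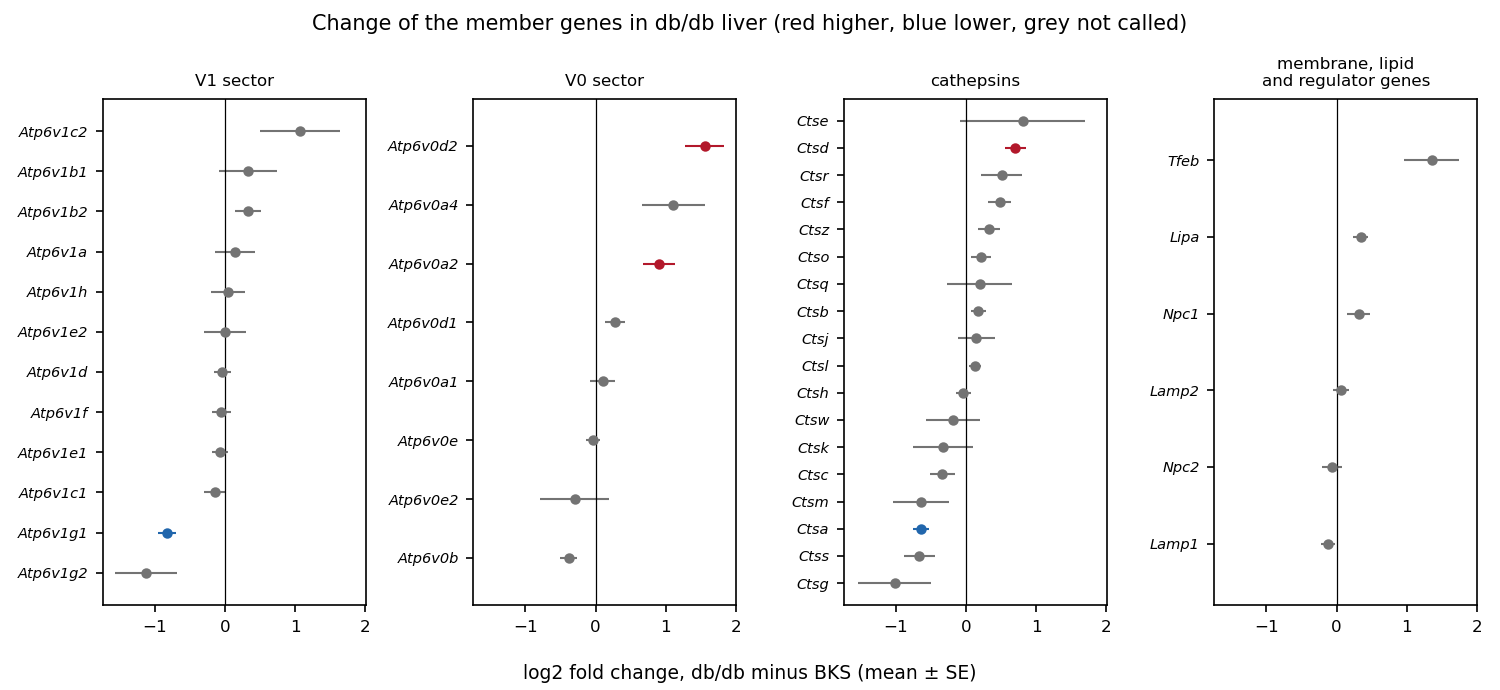
Log2 fold change, db/db minus BKS, of each of the 44 genes on the horizontal axis with its standard error, in 4 panels by role. Red points rose, blue points fell and grey points were not called. The called genes are Atp6v0d2, Atp6v0a2 and Ctsd on the right and Atp6v1g1 and Ctsa on the left, and most grey points lie near 0.

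Cathepsin D and cathepsin A moved in opposite directions. Ctsd encodes the main aspartic protease of the lysosome. Its signal was 12.00, 12.62, 11.76, 12.10 and 11.83 on BKS arrays 1 to 5 and 12.71, 12.73, 12.83 and 12.80 on db/db arrays 1 to 4. All db/db arrays lay above all BKS arrays, with BKS 2 close below them, and the db/db arrays spread over far less than the BKS arrays. The log2 rise of Ctsd was 0.71 (SE 0.15, adjusted p = 0.0161). It measured 0.59 on the low-18S and 0.85 on the high-18S arrays. Its call was lost without db/db 3 (0.68, adjusted p = 0.0569). Ctsa encodes cathepsin A, a serine carboxypeptidase that also shields beta-galactosidase and neuraminidase from breakdown. Its signal was 12.18, 12.46, 12.18, 12.03 and 12.23 in BKS and 11.61, 11.75, 11.43 and 11.49 in db/db. The groups did not overlap, as for 7 of the 44 genes and 9.15% of all genes. Ctsa fell, with a log2 fold change of -0.65 (SE 0.12, adjusted p = 0.00506) and with -0.60 and -0.67 inside the low and high 18S sets. A dimmer probe set of Ctsa stood at 0.39 and was not called (SE 0.30, adjusted p over probe sets 0.632).

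The promoters of these genes are shown because TFEB itself is among the genes measured and because Ctsd and Ctsa, called in opposite directions, both carry the CACGTG letters. Sequences are the 250 bases before a gene's start from the RefSeq table for GRCm38.p6, written 5′ to 3′ on the strand of the gene, with CACGTG in capitals. Atp6v0b, a proton-carrying subunit of the V0 sector, and Lamp1 are added as genes with several copies and no call.
Ctsd, chr7:142387828-142388077, minus strand: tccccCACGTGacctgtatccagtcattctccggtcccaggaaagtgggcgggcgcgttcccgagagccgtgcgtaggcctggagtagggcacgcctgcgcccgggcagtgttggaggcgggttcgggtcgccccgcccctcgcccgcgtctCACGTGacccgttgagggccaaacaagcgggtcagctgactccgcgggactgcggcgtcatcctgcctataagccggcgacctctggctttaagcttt
Ctsa, chr2:164833523-164833772, plus strand: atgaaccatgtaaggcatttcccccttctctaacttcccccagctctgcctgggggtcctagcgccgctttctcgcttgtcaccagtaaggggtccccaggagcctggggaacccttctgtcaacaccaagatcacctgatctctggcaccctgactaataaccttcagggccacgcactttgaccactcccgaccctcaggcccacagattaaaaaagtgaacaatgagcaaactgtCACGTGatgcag
Atp6v0b, chr4:117887330-117887579, minus strand: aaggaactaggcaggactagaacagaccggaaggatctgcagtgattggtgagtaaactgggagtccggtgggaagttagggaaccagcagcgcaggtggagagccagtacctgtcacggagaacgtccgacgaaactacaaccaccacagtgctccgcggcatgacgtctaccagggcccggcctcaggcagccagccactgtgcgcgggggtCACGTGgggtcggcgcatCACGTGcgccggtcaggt
Lamp1, chr8:13158911-13159160, plus strand: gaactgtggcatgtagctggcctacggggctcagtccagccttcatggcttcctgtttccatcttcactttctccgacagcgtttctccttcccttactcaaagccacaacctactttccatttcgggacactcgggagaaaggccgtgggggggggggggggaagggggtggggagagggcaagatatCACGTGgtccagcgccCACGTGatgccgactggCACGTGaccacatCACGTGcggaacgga

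CACGTG reads the same on both strands, so a search of 1 strand finds both. The search covered 250 bases before to 50 after each start. Of the 44 genes 33 are in the table, with 37 windows, and 9 of the 33 (27.3%) had CACGTG in at least 1 window, against 8.09% of 27025 genes and 7.15% of 32851 windows. The longer TCACGTGA, which contains CACGTG, was in 5 of the 33 (Ctsa, Ctsd, Atp6v0d1, Atp6v0e and Atp6v1a), against 1.12% of all genes. TCACGTGA with G just before it and C just after it was also searched. That form was in 0 of the 33, against 0.37% of all genes. In Ctsd CACGTG starts 245 and 98 bases before the start. In the second window of Ctsa it starts 12 bases before the start and again at base 6 after it, outside the stretch shown. Lamp1 had 4 copies, starting 61, 45, 28 and 15 bases before the start, and Atp6v0b had copies 36 and 18 bases before it. The others were Atp6v0d1, Atp6v0e, Atp6v1a, Ctsf and Ctsl. The 9 genes with CACGTG had log2 fold changes from -0.65 to 0.71 with a median of 0.13, with 1 rise and 1 fall, and the 24 genes without the letters ran from -1.13 to 1.36 with a median of 0.03 and no call. The 11 genes not in the table held the other 3 called genes (Atp6v0a2, Atp6v0d2 and Atp6v1g1), with a median of 0.17 and a range from -0.83 to 1.56. Over all genes 5.49% were called, and nothing is read from these small counts. A match describes these letters and does not show that a factor binds there.

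The other cathepsins were not called. Ctsb and Ctsl, the abundant cysteine proteases of the hepatocyte lysosome, stood at 0.17 (95% confidence interval -0.06 to 0.41) and 0.13 (-0.06 to 0.32) on the log2 scale. For Ctsl the signal was 14.17, 14.13, 14.09, 14.13 and 14.16 in BKS and 14.18, 14.23, 14.29 and 14.36 in db/db, so all db/db arrays were higher but by little. Ctsh and Ctso stood at -0.04 and 0.22, Ctsf at 0.48 (SE 0.17, adjusted p = 0.135) and Ctsz, which encodes the carboxypeptidase cathepsin X, at 0.33 (SE 0.16, adjusted p = 0.302). The other probe set of Ctsf, which was dim, stood at -1.04 (SE 0.33, adjusted p over probe sets 0.122). The other probe sets of Ctsz, both bright, stood at -0.20 and -0.06. Ctse, the other aspartic protease, varied widely, with 9.46, 10.93, 11.17, 5.89 and 7.82 in BKS and 10.50, 10.86, 9.18 and 8.90 in db/db. Its arrays with high 18S signal were the lowest in each group. The difference between 18S sets, fitted beside genotype, was -2.75 on the log2 scale (adjusted p = 0.00638). The other probe set of Ctse, which was dimmer, varied much less. It read 7.46, 7.91, 7.59, 7.43 and 7.63 in BKS and 7.55, 8.19, 7.25 and 7.74 in db/db.

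Apart from the placental cathepsins, the others had negative values, and none was called. Ctss, which encodes a protease of antigen presentation in macrophages and dendritic cells, was 10.99, 11.03, 11.29, 10.53 and 10.47 in BKS. It was 10.07, 10.13, 9.78 and 10.81 in db/db. The db/db arrays 1, 2 and 3 lay below all BKS arrays and db/db 4 lay among them. The log2 fold change was -0.67 (SE 0.22, adjusted p = 0.105), split into -1.005 on the low-18S and -0.21 on the high-18S arrays, and Ctss was called in the low-18S arrays alone and without db/db 4. Ctsc, which activates serine proteases of granules, stood at -0.34 (SE 0.17, adjusted p = 0.348). Ctsg of neutrophil and mast cell granules (-1.02), Ctsw of cytotoxic lymphocytes (-0.19) and Ctsk of osteoclasts (-0.33) were dim and were not called. The placental cathepsins Ctsj, Ctsm, Ctsq and Ctsr were dim, with group means from 4.39 to 5.87, and ran from -0.64 to 0.51.

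Of 16 markers of Kupffer cells and macrophages none was called (limma, 5 at an unadjusted p under 0.05), 4 had a positive change, and their median was -0.24. Their summed normalized signal ran from 9698 to 25373 in BKS and from 5785 to 14703 in db/db. It was 19371 to 25373 on BKS 1 to 3 and 9698 and 9906 on BKS 4 and 5, the arrays with high 18S signal. The 2 of smallest p were Adgre1, which encodes F4/80 (-0.67, SE 0.23, adjusted p = 0.132), and Timd4, a receptor of resident Kupffer cells (-1.21, SE 0.49, adjusted p = 0.205). With the 18S block Adgre1 and Cd5l, a protein secreted by macrophages, were called lower (adjusted p = 0.0364 and 0.0249). Over all genes 4.13% were called lower with that block.

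Markers of other cells were not called either, and some had large values. Of 12 T and NK cell markers 1 had an unadjusted p under 0.05 (limma), with sums of 730 to 1374 in BKS and 516 to 1021 in db/db. Cd4 stood at -1.39 (adjusted p = 0.0539) and Nkg7 at -0.79. No marker of neutrophils, B cells or mast cells had an unadjusted p under 0.05 (limma), and those of smallest p were S100a8 (-0.70) and Camp (-0.66), Cd79a (-0.69) and Pax5 (-0.68), and Kit (-0.77) and Mcpt4 (0.47). Their sums overlapped, at 611 to 1128 against 562 to 983, 389 to 489 against 185 to 516, and 133 to 463 against 174 to 319. Of 8 endothelial markers 4 had an unadjusted p under 0.05 (limma), with sums of 2054 to 3840 against 2059 to 4140. Pecam1 stood at 1.55 (adjusted p = 0.112, and 0.0470 with the 18S block) and Vwf at 1.19 (adjusted p = 0.128). Of 8 stellate cell and fibroblast markers 2 did so, with sums of 3790 to 15358 against 6033 to 15069. Lrat stood at 0.94 (adjusted p = 0.0851, and 0.0398 with the block) and Des at 1.03 (adjusted p = 0.0877). Of 5 cholangiocyte markers 2 did so, with sums of 535 to 688 against 305 to 610. Sox9 stood at -1.51 (adjusted p = 0.0800, and 0.0268 with the block) and Krt7 at -1.06 (adjusted p = 0.265). A positive change was seen in 3 of 12 T and NK, 4 of 8 neutrophil and 0 of 4 B cell markers. It was seen in 3 of 5 mast cell, 5 of 8 endothelial, 6 of 8 stellate and fibroblast and 2 of 5 cholangiocyte markers. The part of any of these cells in the values of the proteases and the pump was not tested.

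**Figure D2:**
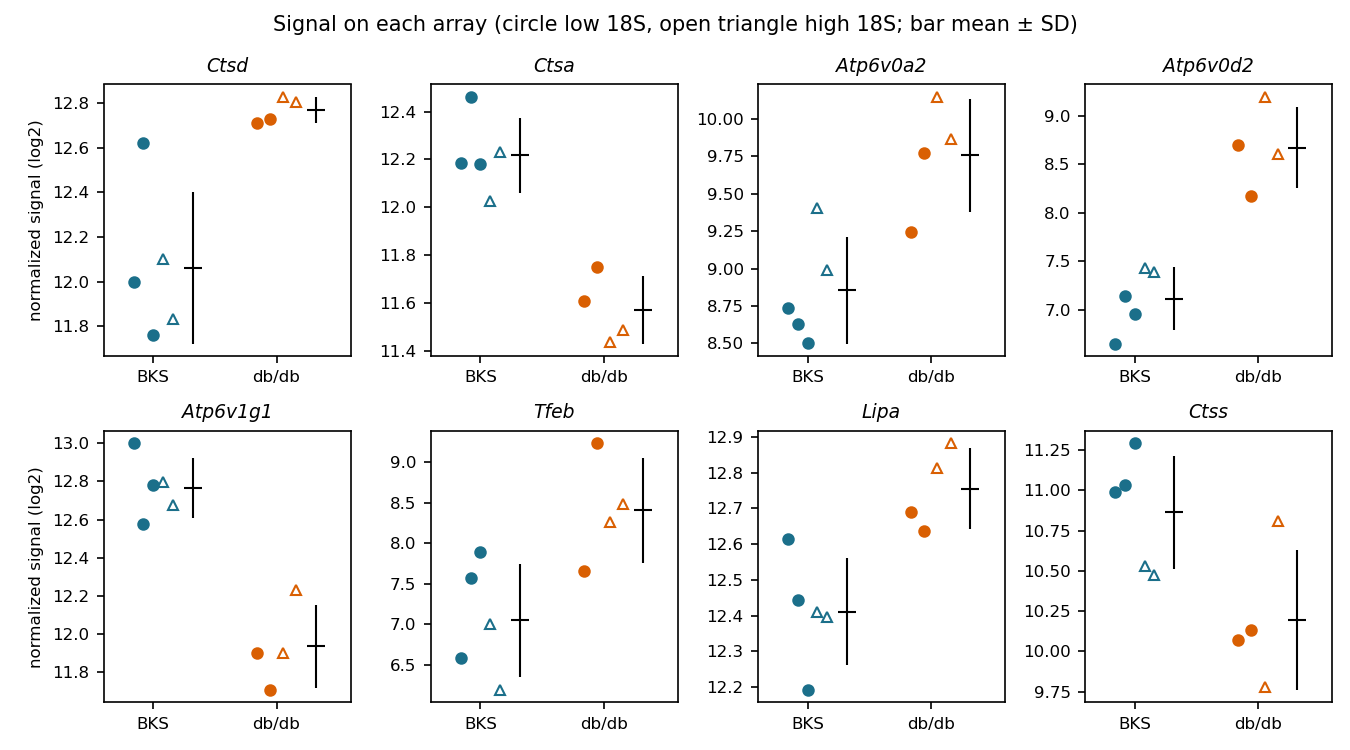
Normalized signal on the log2 scale for 8 genes on each of the 9 arrays. Circles are arrays with low and open triangles arrays with high 18S signal, and the bar is the mean with the SD. The groups do not overlap for Ctsd, Ctsa, Atp6v0d2, Atp6v1g1 and Lipa, and they overlap for Atp6v0a2, Tfeb and Ctss.

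In the membrane sector of the proton pump, isoforms of subunits a and d rose. Atp6v0d2 encodes the d2 isoform, known from osteoclasts, macrophages and kidney, of the stalk subunit d that links both sectors. Its signal was 6.65, 7.14, 6.96, 7.43 and 7.39 in BKS and 8.70, 8.18, 9.20 and 8.61 in db/db. All db/db arrays lay above all BKS arrays in both 18S sets. Its log2 rise was 1.56 (SE 0.28, adjusted p = 0.00479), and 1.53 and 1.49 inside the low and high 18S sets. Its other probe set gave 6.32, 6.63, 6.07, 4.59 and 6.93 in BKS and 7.89, 8.29, 8.30 and 7.22 in db/db, also without overlap. There the log2 fold change was 1.82 (SE 0.47, adjusted p over probe sets 0.0507, and 0.0247 with the 18S block). The ubiquitous isoform Atp6v0d1 stood at 0.28 (SE 0.14, adjusted p = 0.332). None of the 16 macrophage markers counted above was called, and the part of macrophages in the Atp6v0d2 rise was not tested.

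Atp6v0a2 encodes the a2 isoform of the large subunit through which protons pass, found on Golgi and endosomes. Its signal was 8.74, 8.63, 8.50, 9.40 and 8.99 in BKS and 9.25, 9.77, 10.15 and 9.87 in db/db. BKS 4 lay above db/db 1, and the other arrays of both groups were apart. Its log2 rise was 0.90 (SE 0.23, adjusted p = 0.0331), with 0.88 and 0.81 inside the low and high 18S sets and adjusted p = 0.00590 with the block. Of the 5 calls it held in the fewest alternatives (12 of 23). It was lost without BKS 1, BKS 2, BKS 3, db/db 2, db/db 3 or db/db 4 (0.77 to 0.90, adjusted p from 0.0668 to 0.119), and its other probe sets stood at 0.48 and 0.19 without a call. Of the other a isoforms, Atp6v0a1 stood at 0.10 (SE 0.18) and the renal Atp6v0a4, which was dim, at 1.11 (SE 0.45, adjusted p = 0.209). Among the other subunits of the sector, Atp6v0b stood at -0.38 (SE 0.12, adjusted p = 0.0851), with 11.73, 11.63, 11.57, 11.88 and 11.83 in BKS and 11.45, 11.40, 11.08 and 11.43 in db/db. Those groups did not overlap, but its other probe sets were at -0.22 and -0.17. Atp6v0e and Atp6v0e2 stood at -0.04 and -0.30.

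In the V1 sector Atp6v1g1 was the only gene called, and its probe sets disagreed. It encodes G1, part of the peripheral stalk that holds the ATP-splitting head in place. The signal of its brightest probe set was 13.00, 12.58, 12.78, 12.80 and 12.68 in BKS and 11.90, 11.71, 11.90 and 12.23 in db/db, a clear gap between the groups. It fell, with a log2 fold change of -0.83 (SE 0.13, adjusted p = 0.00147) and with -0.98 and -0.67 inside the low and high 18S sets, and the call held without any single array. The next probe set, also bright, read 11.06, 11.16, 11.06, 11.36 and 11.38 in BKS and 11.44, 11.29, 11.72 and 11.35 in db/db, a change of 0.25 in the other direction (SE 0.13, adjusted p over probe sets 0.425). The third probe set, which was dim, stood at -0.38 (SE 0.46) and was not called. The fall was thus measured by 1 of 3 probe sets.

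The rest of the V1 sector did not pass. The catalytic A subunit, Atp6v1a, stood at 0.14 (SE 0.29) and the regulatory, nucleotide-binding B subunit Atp6v1b2 at 0.33 (SE 0.19), and the ubiquitous Atp6v1c1, Atp6v1d, Atp6v1e1, Atp6v1f and Atp6v1h at -0.14, -0.04, -0.07, -0.05 and 0.04. The 95% confidence intervals were -0.30 to 0.22 for Atp6v1d, -0.32 to 0.18 for Atp6v1e1 and -0.34 to 0.24 for Atp6v1f. The other probe sets of Atp6v1c1 stood at -0.38 and -0.29. The former had an adjusted p over probe sets of 0.344, and of 0.0458 with the 18S block. The isoforms known from kidney, brain and testis, Atp6v1b1, Atp6v1c2, Atp6v1e2 and Atp6v1g2, stood at 0.33, 1.07, 0.00 and -1.13, with wide standard errors of 0.30 to 0.57 and adjusted p from 0.190 to 0.997. Of 12 other pump subunits and assembly factors none was called (limma, 1 at an unadjusted p under 0.05), with a median of -0.09. Those with the smallest p were Tcirg1, which encodes the a3 isoform (-0.36, adjusted p = 0.234), and Dmxl2, which helps to put the sectors together (-0.36, adjusted p = 0.309).

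For some pump and protease genes the probe set used differed more by 18S set than by genotype. Atp6v1a read 11.27, 10.83 and 11.02 on BKS 1 to 3 and 11.14 and 11.29 on db/db 1 and 2, against 10.11, 9.94, 10.32 and 10.37 on the 4 arrays with high 18S signal. The difference between sets was -0.95 (adjusted p = 6.64e-04), and for Atp6v1h it was 0.79 the other way (adjusted p = 0.00231). Ctsc (-0.49, adjusted p = 0.0239) and Atp6v0d1 (0.36, adjusted p = 0.0456) followed with smaller differences. Together with Ctse these were 5 of 44 genes, against 3.50% of all genes. None of the 5 genes called by genotype was among them. The genotype difference had the same sign in both sets for 34 of the 44 genes. Other probe sets did not always share these set differences. Another bright probe set of Atp6v1a read 10.87, 10.92, 10.78 and 10.96 on the high-18S arrays. It read 10.28, 10.35, 10.51, 10.66 and 10.36 on the low-18S arrays, the other way. A dimmer probe set of Ctsc was highest on the high-18S arrays of each group, and the remaining one was not. Set differences of these other probe sets were not tested.

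**Figure D3:**
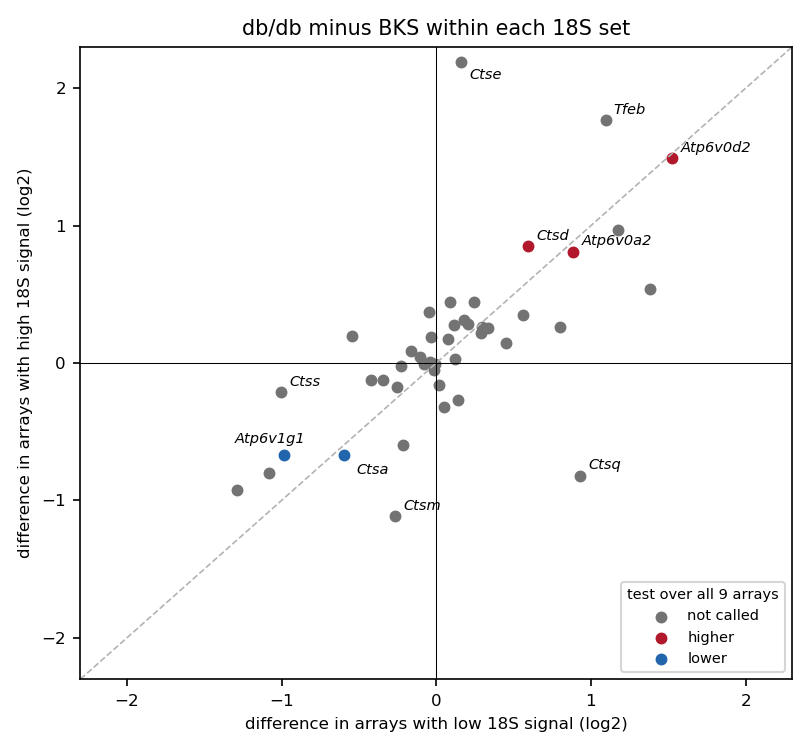
Difference of group means, db/db minus BKS on the log2 scale, for the 44 genes in the 5 arrays with low 18S signal (horizontal) and the 4 with high signal (vertical), with the line of equal differences dashed. The 5 called genes lie near that line, Ctse stands at 0.16 and 2.19, and Ctsq at 0.93 and -0.82.

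The lysosomal membrane proteins and lipid genes were not called. Lamp1, a main glycoprotein of the lysosomal membrane, read 14.04, 13.89, 13.85, 13.96 and 13.98 in BKS and 13.66, 13.74, 13.94 and 13.96 in db/db, with overlapping groups (-0.12, 95% confidence interval -0.34 to 0.10, adjusted p = 0.604). For Lamp2, its partner that also serves autophagy, the values were 14.00, 14.14, 14.21, 13.93 and 14.04 against 14.45, 14.02, 13.95 and 14.08 (0.06, -0.19 to 0.32, adjusted p = 0.845). Only db/db 1 stood apart. Of its other probe sets, 1 was at 0.10 and 2 were at -0.35 and -0.55 (SE 0.12 and 0.23, adjusted p over probe sets 0.163 and 0.266). LAMP2 is made in splice forms that differ at the tail, and which form each probe set reads was not analysed here.

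Lipa read 12.61, 12.44, 12.19, 12.41 and 12.40 in BKS and 12.69, 12.64, 12.81 and 12.88 in db/db. All db/db arrays were higher, with BKS 1 just below them. The difference of 0.34 (SE 0.11, 95% confidence interval 0.11 to 0.58) did not pass over all genes (adjusted p = 0.0940, and 0.0645 with the 18S block), and it was 0.25 and 0.45 inside the low and high 18S sets. Its other probe sets stood at 0.12 and 0.72. The latter had an adjusted p over probe sets of 0.233, and of 0.0198 with the 18S block. Npc1 read 9.65, 9.73, 10.02, 9.91 and 10.38 against 10.14, 10.06, 10.32 and 10.50, with BKS 5 inside the range of db/db (0.32, SE 0.17, adjusted p = 0.367). Npc2 read 12.49, 12.40, 11.91, 12.11 and 11.85 against 12.03, 12.18, 12.10 and 12.03, with the db/db arrays inside the range of BKS (-0.07, SE 0.14, adjusted p = 0.865).

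Tfeb, the transcription factor, had a large positive difference that did not pass over all genes. Its signal was 6.59, 7.57, 7.89, 7.01 and 6.19 in BKS and 7.66, 9.23, 8.26 and 8.48 in db/db. The db/db arrays 2, 3 and 4 lay above all BKS arrays and db/db 1 lay below BKS 3. The log2 fold change was 1.36 (SE 0.40, 95% confidence interval 0.50 to 2.22, adjusted p = 0.0700), with 1.09 and 1.77 inside the low and high 18S sets. It was called with the 18S block (1.40, adjusted p = 0.0392) and without BKS 3 (1.56, adjusted p = 0.0491). It was also called when genes with a mean under 7 were left out and with robust eBayes, and in no other alternative. The gene has 1 probe set.

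**Figure D4:**
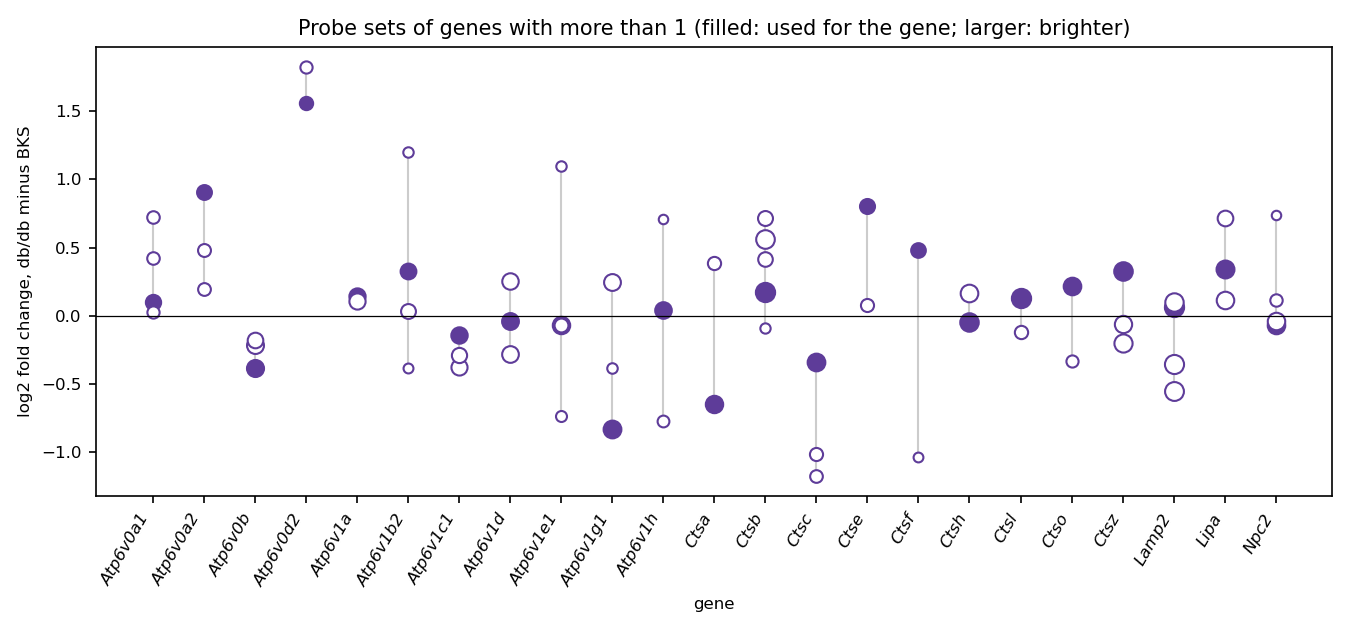
Log2 fold change, db/db minus BKS, of every probe set of the 23 genes with more than 1, with the probe set used for the gene filled and larger circles for brighter probe sets. The probe sets of Atp6v0d2 are at 1.56 and 1.82, while those of Atp6v1g1, Ctsa and Lamp2 lie on both sides of 0.

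Probe sets of 1 gene often differed. Of the 23 genes with several, 14 had changes of both signs, and 8 of 19 did so when only probe sets with a mean of at least 7 were counted. When every probe set was tested on its own, 6 of the 89 were called, against 3.48% of all probe sets. They were the 5 above and 1 of Ctsc, which read 7.95, 7.51, 7.55, 8.31 and 7.76 in BKS and 6.78, 6.79, 6.40 and 6.62 in db/db (-1.17, SE 0.29, adjusted p over probe sets 0.0414). Those groups were well apart, while the brightest probe set of Ctsc gave -0.34. For Ctsb the second brightest probe set read 12.85, 13.54, 13.27, 12.74 and 13.42 in BKS and 13.78, 13.96, 13.62 and 13.54 in db/db, with a change of 0.56 (SE 0.17, adjusted p over probe sets 0.0983) against 0.17 for the brightest. Another probe set of Ctsb stood at 0.72 (SE 0.21, adjusted p over probe sets 0.0957). With the 18S block the second brightest and this one had adjusted p over probe sets of 0.0434 and 0.0202. A further probe set of Ctsc stood at -1.01 (SE 0.34, adjusted p over probe sets 0.142, and 0.0315 with the block). With the probe set of largest variance in place of the brightest, Ctsa stood at 0.39, and Ctsd was the only gene of the 44 called.

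Other genes of the lysosome moved in both directions, few at a time. Of 39 other hydrolases and activators 2 rose and 4 fell, with a median of 0.07. Over all genes 2.89% rose and 2.60% fell. Ppt1, which removes fatty acids from proteins, rose 1.596-fold (adjusted p = 0.0148), and Pla2g15, a lysosomal phospholipase, 1.69-fold (adjusted p = 0.0295). Ppt2, a related thioesterase (1.65-fold, adjusted p = 0.0238), Idua, which degrades glycosaminoglycans (1.85-fold, adjusted p = 0.0400), Man2b1, a mannosidase (1.47-fold, adjusted p = 0.0418), and Dnase2a, the acid nuclease (2.53-fold, adjusted p = 0.0491), fell. With the 18S block 6 hydrolases rose and 5 fell, against 4.11% and 4.13% of all genes. Of 25 other lysosomal membrane proteins none was called (limma, none at an unadjusted p under 0.05), with a median of 0.01. Those with the smallest p were Scarb2, the receptor that brings glucocerebrosidase to lysosomes (-0.20), and Laptm5 of blood cells (-0.88). The calls of Pla2g15, Ppt2, Idua, Man2b1 and Dnase2a were lost in 5 to 7 of the 9 fits that left out 1 array. The call of Ppt1 was lost with the mean of probe sets (0.34, adjusted p = 0.496). It was also lost with the probe set of largest variance (0.70, adjusted p = 0.580).

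Among 24 genes of the TFEB family and of mTORC1, the kinase complex that holds TFEB in the cytosol, 1 rose and 2 fell. The counts of the lists in this paragraph stand beside 2.89% of all genes that rose and 2.60% that fell. Mtor, the kinase, rose 1.46-fold (adjusted p = 0.0418, 0.47 to 0.62 on the log2 scale with 1 array left out). The GTPases Rragd (3.25-fold, adjusted p = 0.0256) and Rheb (1.44-fold, adjusted p = 0.0462), which recruit and activate the complex, fell. Rragd was dim, with means of 7.03 in BKS and 5.33 in db/db. Its log2 fold change was -2.40 with 1 added to the signal in place of 16. With the mean of probe sets it was -0.67 and not called (adjusted p = 0.284). With the 18S block 1 gene of the TFEB and mTORC1 list rose and 5 fell, against 4.11% and 4.13% of all genes. Leaving out single arrays ended these calls in 5 to 7 of 9 fits. Of 16 genes of delivery to the lysosome Sort1, which encodes sortilin, fell 2.298-fold (adjusted p = 7.74e-04), and none rose. Cystatins and stefins inhibit cysteine cathepsins. Of 9 of these and related genes, Fetub, a secreted fetuin made by liver whose targets were not examined, fell 1.29-fold (adjusted p = 0.0367), and none rose. Its call ended in all 9 such fits. Of 36 core autophagy genes 3 rose and none fell: Atg5 (1.58-fold, adjusted p = 0.00566) and Atg3 (1.30-fold, adjusted p = 0.0498, a call that 8 of 9 such fits ended), which attach LC3 to membranes, and Atg4a, which trims LC3 proteins (1.89-fold, adjusted p = 0.00834). The median of that list was 0.07. With the probe set of largest variance, Mtor stood at -0.30, Atg4a at -0.31 and Atg3 at -0.01.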

How the data were processed

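Biotin-labelled RNA (8 µg total RNA per sample, per the labels' protocols) was read on 9 single-colour arrays. The deposited table holds linear intensity values per probe set. For its software, background correction and scaling, the sources used here give nothing. The 2% trimmed mean was 500.003 to 500.005 on every array, and no arrays were identical. Array medians of log2(intensity + 16) spanned 0.60, above a limit of 0.25, so arrays were quantile normalized (limma 3.58.1, R 4.3.3). Of 45101 probe sets 34945 had 1 symbol, 932 several, 9160 none, and 64 were controls. Genes took the probe set of highest mean, kept in all fits except those on probe set choice. The test was lmFit and eBayes with an intensity trend, 2-sided, genotype as the only term, tested on simulated data. Array medians were 67.4 to 110.8, and the number of arrays limits precision.

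The genes described, the lists and the 18S split were chosen with earlier results of these data known. Every gene described is named or counted. Called genes and the 6 named singly in the selection get their value on every array, as do genes singled out after their values were seen. From each list the called genes of smallest p, up to 3 per direction, were named, else the 2 of smallest p. Dnase2a and Cd5l were added after their values were seen. Marker lists of hepatocytes, macrophages, T and NK cells, neutrophils, B cells, mast cells, endothelial cells, stellate cells and cholangiocytes (5 to 16 genes listed in each) were summed as normalized signal. Equal sample numbers were not taken as pairs, since deviations of same-numbered samples correlated at 0.03, 0.17, -0.07 and 0.13.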

Additional observations from a re-analysis of the deposited data

Results flagged for a closer look

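Among 124 gene and group combinations, arrays that stood far from the rest of their group by Dixon's criterion were sought, which chance gives in about 1 of 20. Of the genes of the pump and proteases 5 had such an array. Atp6v1b2 was lowest on BKS 1 (9.34, next 10.12), Atp6v1c2 was highest on BKS 4 (6.64, next 4.65), Ctsz was highest on db/db 4 (13.93, next 13.39), Atp6v0b was lowest on db/db 3 (11.08, next 11.40) and Ctsk was highest on db/db 2 (6.20, next 4.99). Among the other listed genes Ppt2 was lowest on BKS 4 (10.87, next 11.37), Fetub highest on BKS 2 (14.47, next 14.31) and Atg5 lowest on BKS 1 (10.62, next 10.99).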

How the results depend on the processing

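Of the 44 genes 14 kept the sign of their change in all 23 alternatives and 9 in the 22 that were run on them, since the filter on dim genes left them out. The other 21 turned in at least 1. The 3 rises became 1 with the probe set of largest variance, without the trend and in the high 18S arrays alone, and 0 in the low 18S arrays alone. The number of falls, 2, became 0 with median centring and with the probe set of largest variance. It became 1 with the mean of probe sets (Ctsc, while Atp6v1g1 and Ctsa were lost at adjusted p = 0.442 and 0.792), without the trend (Atp6v1g1) and in the high 18S arrays alone (Ctsa). In the low 18S arrays alone it stayed 2, with Ctss in place of Ctsa. With 1 array left out there were 1 to 3 rises, 1 without db/db 3, and 2 to 3 falls. The median of 0.08 became 0.14 with median centring, 0.0149 with the mean of probe sets, -0.0175 with the largest variance, and 0.0342 to 0.10 with 1 array left out. Over all genes, 526 rises and 473 falls became 323 and 212 with median centring, 406 and 273 with the mean of probe sets, 370 and 260 with the largest variance, 254 and 212 without the trend, 747 and 751 with the 18S block, 209 and 200 in the low and 258 and 237 in the high 18S arrays alone, and 309 and 283 without db/db 3. Npc2 (-0.07) turned to 0.0420 with median centring, 0.19 with the mean of probe sets, 0.74 with the largest variance, 0.0851 inside the high 18S set and to 0.0180 when BKS 1 was left out (-0.14 to 0.0180 over single arrays). Lamp2 (0.06) turned to -0.18 with the mean of probe sets, -0.55 with the largest variance and -0.0452 without db/db 1. With the largest variance Ctsa stood at 0.39, Scarb2 at 0.12, Mtor at -0.30, Atg4a at -0.31 and Atg3 at -0.00872. The cause was not tested. A replicate block on the sample number, over numbers 1 to 4, gave 3 rises, 2 falls and a median of 0.09, with 598 rises and 546 falls over all genes, and changed no call among the 44 genes. Only numbers 2 and 4 correlated best with their own number. The table gives no detection calls, so what signal over background limits could not be measured.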
